A study of Homo sapiens with 9 samples.

Results

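The transcripts described here are antisense and divergent noncoding RNAs, taken by name from the gene table of an RNA sequencing study of 786-O cells. A gene was included when its symbol ended in -AS and a digit or in -DT and its read count averaged at least 20 over the 9 libraries. This gave 275 transcripts, 190 ending in -AS and 85 ending in -DT, out of 2355 genes with such a symbol and 61806 genes in the table. The members were thus selected on their read counts, so their level is a description. NR2F2-AS1 and NIFK-AS1, with a mean count of 20 each, lay just inside the threshold, and CKMT2-AS1 (19.9) and BAZ1A-AS1 (19.7) lay just outside it. The groups were 786-O cells with TRIM28 knocked down, 786-O cells with PARP1 knocked down and control 786-O cells, with 3 libraries of polyadenylated RNA in each. 786-O is an established human line of clear cell kidney cancer without functional VHL, a loss that all 3 groups share. TRIM28 is a corepressor brought to chromatin by KRAB zinc finger proteins, and PARP1 adds poly(ADP-ribose) chains to proteins at DNA breaks. The labels call the reagent siRNA in some fields and shRNA in another, and name the controls both negative control and parental. Whether replicates were separate cultures is not stated, so the p-values rest on a spread between samples that may be technical. All 9 libraries carry 1 batch label.

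Many human promoters fire in both directions. The transcript that runs away from the gene is usually short-lived: early polyadenylation signals end it, and the nuclear exosome degrades it with the help of adaptor complexes. Those divergent transcripts that are spliced and polyadenylated accumulate as annotated noncoding RNAs, which carry the name of the neighbouring gene with the ending -DT. An -AS transcript lies on the strand opposite to the gene it is named after and may start inside it, behind it or at its promoter. Some such RNAs act on the gene beside them and many have no known function, so each was set against the gene in its name.

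Promoters are shown for 4 divergent transcripts, 2 whose ratio to the neighbouring gene moved far in PARP1 knockdown cells (RNASEH1-DT and COPB2-DT) and 2 that rose in both knockdowns (FLVCR1-DT and OSER1-DT). Each sequence runs from 250 bases before to 50 bases after the RefSeq start of the transcript, in its own direction, on GRCh38.p14. Capitals mark the GC box GGGCGG, the ETS core CCGGAAG and the CCAAT box CCAAT, on either strand. RNASEH1-DT covers chr2:3558136-3558435 on the plus strand, COPB2-DT chr3:139389553-139389852 on the plus strand, FLVCR1-DT chr1:212858089-212858388 on the minus strand and OSER1-DT chr20:44210710-44211009 on the plus strand.
RNASEH1-DT: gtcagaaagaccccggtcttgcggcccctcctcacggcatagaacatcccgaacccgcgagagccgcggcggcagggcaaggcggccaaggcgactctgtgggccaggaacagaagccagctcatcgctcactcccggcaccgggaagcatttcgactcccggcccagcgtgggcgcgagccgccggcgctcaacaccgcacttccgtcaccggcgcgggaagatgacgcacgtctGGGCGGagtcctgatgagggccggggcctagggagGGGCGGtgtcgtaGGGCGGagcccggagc
COPB2-DT: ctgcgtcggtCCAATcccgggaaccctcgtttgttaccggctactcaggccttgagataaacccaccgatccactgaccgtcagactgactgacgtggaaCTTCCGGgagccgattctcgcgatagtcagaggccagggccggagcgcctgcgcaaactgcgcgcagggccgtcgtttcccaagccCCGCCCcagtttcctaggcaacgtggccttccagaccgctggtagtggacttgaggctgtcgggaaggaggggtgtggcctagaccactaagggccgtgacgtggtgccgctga
FLVCR1-DT: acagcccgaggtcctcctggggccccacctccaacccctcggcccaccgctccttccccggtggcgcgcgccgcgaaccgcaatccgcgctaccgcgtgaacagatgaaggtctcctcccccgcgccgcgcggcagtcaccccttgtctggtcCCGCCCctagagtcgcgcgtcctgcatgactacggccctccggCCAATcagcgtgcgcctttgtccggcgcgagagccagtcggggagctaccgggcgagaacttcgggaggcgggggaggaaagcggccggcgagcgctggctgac
OSER1-DT: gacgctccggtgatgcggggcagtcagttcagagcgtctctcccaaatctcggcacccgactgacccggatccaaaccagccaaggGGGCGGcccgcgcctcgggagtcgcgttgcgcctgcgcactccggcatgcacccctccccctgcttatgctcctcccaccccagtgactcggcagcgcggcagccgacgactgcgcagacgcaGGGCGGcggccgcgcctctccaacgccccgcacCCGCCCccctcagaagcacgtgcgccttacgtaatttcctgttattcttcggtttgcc
All 4 windows hold the start of the neighbouring gene as well, on the other strand. Counted from the 5′ end, that start lies at base 198 for RNASEH1, 184 for COPB2, 114 for FLVCR1 and 62 for OSER1. The sequences are therefore shared promoters, GC-rich at 63.0% to 72.0%. They hold 3 GC boxes for RNASEH1-DT, 1 for COPB2-DT, 1 for FLVCR1-DT and 3 for OSER1-DT, and COPB2-DT also holds 1 ETS core. RefSeq lists such a window for 222 of the 275 transcripts. The GC box occurred in 73.1% of 67 -DT windows and in 56.1% of 155 -AS windows, against 45% of all 35116 windows in the table. The ETS core occurred in 31.3% of -DT and 16.8% of -AS windows, against 10.3% of all. The CCAAT box occurred in 38.8% of -DT and 32.9% of -AS windows, against 34.6% of all. The NRF1 motif occurred in 17.9% of -DT and 14.8% of -AS windows, against 5.78% of all, and TATAAA in 7.46% and 6.45%, against 11.5% of all. The median GC content was 69.0% in -DT, 63.3% in -AS and 58.7% in all windows. The motif GGGCGG is more likely in GC-rich sequence, and a match is only a run of letters. Among transcripts that rose in PARP1 knockdown, 52.4% of 63 windows held the GC box, against 63.1% of 149 windows of transcripts that did not pass the test and 9 of 10 windows of those that fell.

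Total counts per library ranged from 11963110 to 20224374, and all 275 transcripts passed the filter on low counts and had reads in every library. They took 0.142% to 0.158% of the counts of a library. TRIM28 stood at 44.0, 54.7 and 58.0 CPM (read counts scaled to library size with TMM factors) in TRIM28 knockdown libraries, against 316, 342 and 381 CPM in controls. PARP1 stood at 6.82, 4.48 and 5.24 CPM in PARP1 knockdown libraries, against 178, 200 and 153 CPM in controls. The other target differed as well: PARP1 stood at 94.4, 93.3 and 93.6 CPM in TRIM28 knockdown, below every control, and TRIM28 at 440.5, 421 and 428 CPM in PARP1 knockdown, above every control. Of the libraries, PARP1 knockdown replicate 1 and control replicate 3 stood apart from their groups. The chi-square per degree of freedom between 2 libraries over all genes was 47.9 and 52.0 for PARP1 knockdown replicate 1, against 21.0 for the other pair of its group, and 24.9 and 17.9 for control replicate 3, against 4.99 for the other pair. All 8 markers of renal epithelium and clear cell carcinoma lines had a mean count of at least 20. The lowest of them, CA9, stood at only 0.423 to 2.18 CPM. Of the other markers, 2 of 4 for blood and 1 of 2 for adipocytes were at 0 in every library. The 3 endothelial markers summed to 0.797 to 1.29 CPM, a range that overlaps that of CA9. The libraries differed in how levels followed gene length. The slope of the log2 level of a gene against the log2 of its summed exon length, each level set against the gene's mean, was -0.025 to -0.001 in TRIM28 knockdown, -0.167 to -0.098 in PARP1 knockdown and 0.073 to 0.205 in control. Its part in the results below was not tested beyond the fits that removed it.

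The strand on which reads were counted bears on every antisense gene. The libraries were made with a directional kit, which keeps the strand, but the setting of the counting is not given. Of 748 genes whose exons lie wholly under exons of a gene on the other strand, 728 (97.3%) had no read in any of the 9 libraries, against 63.2% of 45610 genes with no such overlap. The share without reads stood at 21.8% of genes with up to 25% of their exon bases covered, 34.8% of those with 25 to 50%, 43.4% of those with 50 to 75% and 59.0% of those with more. Genes wholly under opposite exons thus had almost no reads, but gene type and length were not matched between these sets, and whether reads were counted by strand was not tested. Without a stated setting, reads from a transcript and from intronic RNA of the gene on the other strand may not have been told apart where the transcript's exons lie in that gene's introns. Of the 275 transcripts, 99 had at least 90% of their exon bases outside any gene on the other strand, and these are called clear below; 7 of these have over 10% of their exon bases under another gene on the same strand. Another 71 had at least 50% inside introns of such a gene, 104 were mixed and 1 was not in the annotation used. Results are given with this class.

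**Figure D1:**
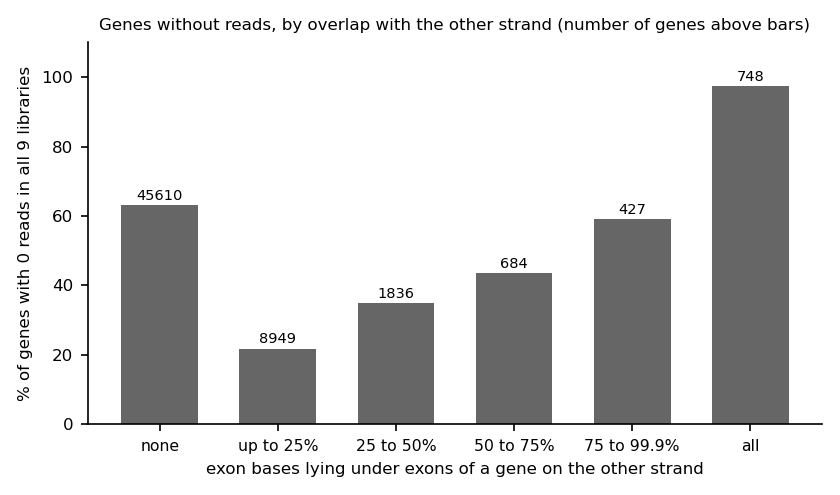
Share of genes with no read in any library (vertical axis, percent) by how much of their exon sequence lies under exons of a gene on the other strand (horizontal axis), with the number of genes above each bar. The last bar stands at 97.3%, against 63.2% for the first.

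The transcripts sat close to the genes they are named after. A gene of that name was in the table for 268 of them, and the other 7 were HOXB-AS1, HOXB-AS3, HOXB-AS4, HOXD-AS2, HOXA-AS2, HOXA-AS3 and ZNF295-AS1. In 67 pairs the genes ran away from each other without overlap, 55 of them -DT, with a median of 107 bases between the starts and 56 pairs within 300 bases. In 106 pairs the starts lay inside each other, in 92 the overlap had another form, in 2 the ends faced each other and in 1 the symbols shared a strand. Per length, most transcripts were lower than their gene. In FPKM, which divides by exon length, the median over transcripts was 0.847 in TRIM28 knockdown, 0.817 in PARP1 knockdown and 0.870 in control, and the median over named genes was 2.08, 1.47 and 3.08 FPKM. The transcript was below its gene in 165 of 268 pairs in TRIM28 knockdown, in 152 in PARP1 knockdown and in 188 in control.

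The 6 transcripts with the most reads were APCDD1L-DT, KRT10-AS1, UBA6-DT, FGD5-AS1, MAP3K9-DT and LYPLAL1-AS1. KRT10-AS1 (ENSG00000167920, chromosome 17, 40819101 to 40836270, plus strand, GRCh38 as for all coordinates here) also had the highest FPKM, at 32.5 ± 1.60 in TRIM28 knockdown, 37.3 ± 5.06 in PARP1 knockdown and 24.2 ± 1.71 in control (SD, n = 3 each). Its level was 96.9, 107 and 94.1 CPM in TRIM28 knockdown and 105, 127 and 156 CPM in PARP1 knockdown, against 63.0, 61.7 and 74.5 CPM in control. Both knockdowns lay above every control. KRT10-AS1 rose by 0.58 ± 0.14 on the log2 scale (standard error, as for all log2 changes below; adjusted p = 0.00424) in TRIM28 knockdown and 0.96 ± 0.14 (adjusted p = 3.67e-06) in PARP1 knockdown (edgeR, quasi-likelihood, with Benjamini-Hochberg adjustment over all genes). APCDD1L-DT stood at 96.0, 102 and 92.6 CPM in TRIM28 knockdown and 97.4, 126 and 132 CPM in PARP1 knockdown, against 82.1, 86.9 and 91.4 CPM in control. Only its change in PARP1 knockdown passed the test among the comparisons with control (log2 0.45 ± 0.13, adjusted p = 0.00547), and that call ended when counts were scaled by library totals (0.12). MAP3K9-DT and LYPLAL1-AS1 also rose in PARP1 knockdown, by 0.34 ± 0.15 and 0.85 ± 0.16. The call for MAP3K9-DT ended without control replicate 1 or 2, TRIM28 knockdown replicate 1 or 2, or PARP1 knockdown replicate 1 or 3 (0.29 to 0.38), and with library totals (0.02). UBA6-DT, which starts 54 bases from the ubiquitin-activating enzyme gene UBA6, passed in neither knockdown (0.19 ± 0.15 and 0.30 ± 0.15).

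In TRIM28 knockdown against control, 14 of the 275 transcripts rose and 8 fell, and 253 did not pass an adjusted p of 0.05. Over all 13562 genes tested, 27.8% were called, 10.3% higher and 17.5% lower, and among the 5270 genes with a mean count from 20 to under 200, where 255 of the transcripts lie, 2.35% were higher and 20.6% lower. The members' shares were 5.09% higher and 2.91% lower, or 4.31% and 2.75% of those 255, and their median log2 fold change was 0.18, against -0.02 over all genes. Of the 14 that rose, 10 were -DT and 4 were -AS, while all 8 that fell were -AS. Libraries of the 2 groups did not overlap for 59 transcripts that were higher and 17 that were lower, where 21.2% and 25.3% of all genes did so. Scaled by library totals instead of TMM factors, the split was 4 higher and 10 lower; that scaling moved the median of all genes from -0.02 to -0.18 and of the transcripts from 0.18 to 0.03. With the trends of length and GC content removed it was 31 and 5. Of the 22 transcripts called here, 12 were also called with library totals and 11 with both trends removed. The number that rose was 2 without control replicate 1, 6 without control replicate 2, 23 without control replicate 3, 7 without TRIM28 knockdown replicate 1 and 3 without TRIM28 knockdown replicate 2. The number that fell was 1, 2, 3, 2 and 3 without control replicates 1 and 2 and TRIM28 knockdown replicates 1, 2 and 3.

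The transcript with the steepest rise in TRIM28 knockdown was OSER1-DT (ENSG00000223891, chromosome 20, 44210907 to 44226027, plus strand), which leaves the shared promoter shown above in the direction away from OSER1, a gene named for its response to oxidative stress. It stood at 2.68, 3.19 and 1.75 CPM in TRIM28 knockdown and 2.05, 2.79 and 3.27 CPM in PARP1 knockdown, against 0.866, 0.726 and 1.71 CPM in control. Every knockdown library lay above every control, by a small margin over control replicate 3. The log2 fold changes were 1.18 ± 0.36 (adjusted p = 0.0173, edgeR) in TRIM28 knockdown and 1.27 ± 0.37 (adjusted p = 0.00446, edgeR) in PARP1 knockdown. The first of these calls ended without either of control replicates 1 and 2 or TRIM28 knockdown replicate 1 or 2 (0.98 to 1.14). OSER1 itself had 73.3, 72.3 and 64.3 CPM in TRIM28 knockdown and 61.6, 83.3 and 81.7 CPM in PARP1 knockdown, against 52.4, 53.7 and 58.9 CPM in control. OSER1 rose in PARP1 knockdown (log2 0.46 ± 0.14) and its change in TRIM28 knockdown, 0.35 ± 0.14, did not pass.

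FLVCR1-DT (ENSG00000198468, chromosome 1, 212852105 to 212858139, minus strand) shares its promoter with FLVCR1, a choline and heme transporter. It held 3.55, 4.86 and 5.42 CPM in TRIM28 knockdown and 4.37, 6.00 and 6.13 CPM in PARP1 knockdown, against 2.65, 2.37 and 3.00 CPM in control. All knockdown libraries lay above all controls. It rose by 0.78 ± 0.25 (adjusted p = 0.0233, edgeR) in TRIM28 knockdown and by 1.03 ± 0.26 (adjusted p = 0.00121, edgeR) in PARP1 knockdown, and the first call ended without either of control replicates 1 and 2 or TRIM28 knockdown replicate 2 or 3 (0.66 to 0.80) and with library totals (0.63). SLC30A6-DT, beside a zinc transporter gene, stood at 2.43, 1.99 and 2.17 CPM in TRIM28 knockdown and 1.92, 3.04 and 2.18 CPM in PARP1 knockdown, against 0.722, 0.823 and 1.71 CPM in control. Control replicate 3 was the highest control and lay below every knockdown library. SLC30A6-DT rose by 1.01 ± 0.36 with TRIM28 knockdown and 1.12 ± 0.37 with PARP1 knockdown, calls that ended without any 1 of control replicates 1 and 2 and the 3 TRIM28 knockdown libraries (0.81 to 1.07) for TRIM28 and without control replicate 1 or PARP1 knockdown replicate 2 (0.90 to 0.93) for PARP1. Library totals ended both calls (0.87 and 0.80), as did removing the length trend (0.74 and 0.58).

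The other 5 of the 8 largest rises in TRIM28 knockdown lay between 0.65 and 1.02 on the log2 scale. MAP3K2-DT, beside a kinase of the MAP kinase cascade, changed by 1.02 ± 0.38, ATP6AP1-DT, beside an accessory subunit of the vacuolar proton pump, by 0.75 ± 0.22, and ITGB1-DT, beside integrin beta 1, by 0.69 ± 0.23. PPP1R14B-AS1, named after a regulator of protein phosphatase 1, changed by 0.67 ± 0.21, and ZNF213-AS1, named after a zinc finger gene, by 0.65 ± 0.21. Each call ended without some libraries. Those were control replicates 1 and 3 and all 3 TRIM28 knockdown libraries for MAP3K2-DT (0.82 to 1.05), control replicates 1 and 2 and TRIM28 knockdown replicate 2 for ATP6AP1-DT (0.61 to 0.73), and control replicates 1 and 2 and TRIM28 knockdown replicates 1 and 2 for ITGB1-DT (0.49 to 0.75). They were control replicate 1 and TRIM28 knockdown replicate 2 for PPP1R14B-AS1 (0.55 in each case), and control replicates 1 and 2 and TRIM28 knockdown replicates 1 and 2 for ZNF213-AS1 (0.52 to 0.72). With library totals the calls for MAP3K2-DT (0.86), ITGB1-DT (0.54), PPP1R14B-AS1 (0.51) and ZNF213-AS1 (0.49) also ended, and with the length trend removed those for ATP6AP1-DT (0.46) and PPP1R14B-AS1 (0.39).

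Falls in TRIM28 knockdown were all in -AS transcripts. THAP9-AS1, which starts near THAP9, a gene descended from a DNA transposase, held 3.11, 3.35 and 2.77 CPM in TRIM28 knockdown and 3.25, 2.62 and 3.17 CPM in PARP1 knockdown, against 8.76, 7.02 and 4.24 CPM in control. Control replicate 3 lay nearest to the knockdowns. THAP9-AS1 fell by 1.12 on the log2 scale in TRIM28 knockdown (adjusted p = 0.00306, edgeR), a call that ended without control replicate 1 (-0.85), and by 1.14 in PARP1 knockdown (adjusted p = 0.000745, edgeR). All of its exon bases lie under a gene on the same strand in the annotation used, so its counts are uncertain.

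RAB4A-AS1 (ENSG00000177788, chromosome 1, 229256892 to 229271242, minus strand), which starts at the gene of a small GTPase of recycling endosomes, had 1.06, 1.44 and 1.93 CPM in TRIM28 knockdown and 0.662, 1.69 and 1.58 CPM in PARP1 knockdown, against 4.67, 2.57 and 2.07 CPM in control. Control replicate 1 was far above the other controls. It fell by 1.06 ± 0.37 on the log2 scale in TRIM28 knockdown, a call that ended without either of control replicates 1 and 2 or TRIM28 knockdown replicate 1 or 2 (-1.16 to -0.63), and by 1.28 ± 0.39 in PARP1 knockdown, a call that ended without control replicate 1 (-0.82). RAB4A had 22.1, 21.3 and 19.1 CPM in TRIM28 knockdown and 20.4, 19.2 and 22.0 CPM in PARP1 knockdown, against 18.6, 17.9 and 20.1 CPM in control, changes of 0.14 ± 0.15 and 0.12 ± 0.15 that did not pass. ZFHX3-AS1, named after a transcription factor gene, changed by -0.88 ± 0.28 with TRIM28 knockdown and -1.15 ± 0.29 with PARP1 knockdown. STX18-AS1, at the gene of a SNARE protein of the endoplasmic reticulum, changed by -0.81 ± 0.31 and -0.91 ± 0.32, and NNT-AS1, at the gene of the mitochondrial transhydrogenase, by -0.73 ± 0.24 and -0.73 ± 0.24. WARS2-AS1, at the gene of a mitochondrial tRNA synthetase, changed by -0.67 ± 0.24 and -1.01 ± 0.25.

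The calls for these 4 rested on few libraries in TRIM28 knockdown. They ended without either of control replicates 1 and 2 or TRIM28 knockdown replicate 2 or 3 for ZFHX3-AS1 (-0.87 to -0.68), and without any 1 of control replicates 1 and 2 and the 3 TRIM28 knockdown libraries for NNT-AS1 (-0.79 to -0.56) and WARS2-AS1 (-0.74 to -0.56). For STX18-AS1 they ended without any 1 of those 5 libraries or PARP1 knockdown replicate 2 (-0.85 to -0.75). In PARP1 knockdown they ended without either of control replicates 1 and 2 or PARP1 knockdown replicate 3 for STX18-AS1 (-0.86 to -0.75) and without control replicate 1 or PARP1 knockdown replicate 2 for NNT-AS1 (-0.64 to -0.55). Removing the length trend ended the TRIM28 knockdown calls of ZFHX3-AS1 (-0.58), NNT-AS1 (-0.50), WARS2-AS1 (-0.31), STX18-AS1 (-0.40) and RAB4A-AS1 (-0.78). Removing the trends of length and GC content ended the PARP1 knockdown calls of RAB4A-AS1 (-0.54), NNT-AS1 (-0.06) and WARS2-AS1 (-0.22) and turned that of STX18-AS1 (0.12). STX18-AS1 and WARS2-AS1 have 21287 and 12000 exon bases, against a median of 3951 over the 275 transcripts.

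FGD5-AS1 (ENSG00000225733, chromosome 3, 14920347 to 14948424, minus strand), which lies opposite a guanine nucleotide exchange factor of endothelial cells, was the best measured of those that fell. It stood at 24.5, 24.6 and 19.9 CPM in TRIM28 knockdown and 18.2, 15.9 and 14.4 CPM in PARP1 knockdown, against 34.4, 31.6 and 27.7 CPM in control. The 3 groups did not overlap, and PARP1 knockdown was the lowest. The log2 fold changes were -0.44 ± 0.15 (adjusted p = 0.0317, edgeR) in TRIM28 knockdown and -0.94 ± 0.16 (adjusted p = 1.35e-05, edgeR) in PARP1 knockdown. FGD5 had no read in any of the 9 libraries. The TRIM28 knockdown call ended without any 1 of control replicates 1 and 2 and the 3 TRIM28 knockdown libraries (-0.49 to -0.33), and with the length trend removed (-0.27). The PARP1 knockdown call ended with the trends of length and GC content removed (-0.28).

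**Figure D2:**
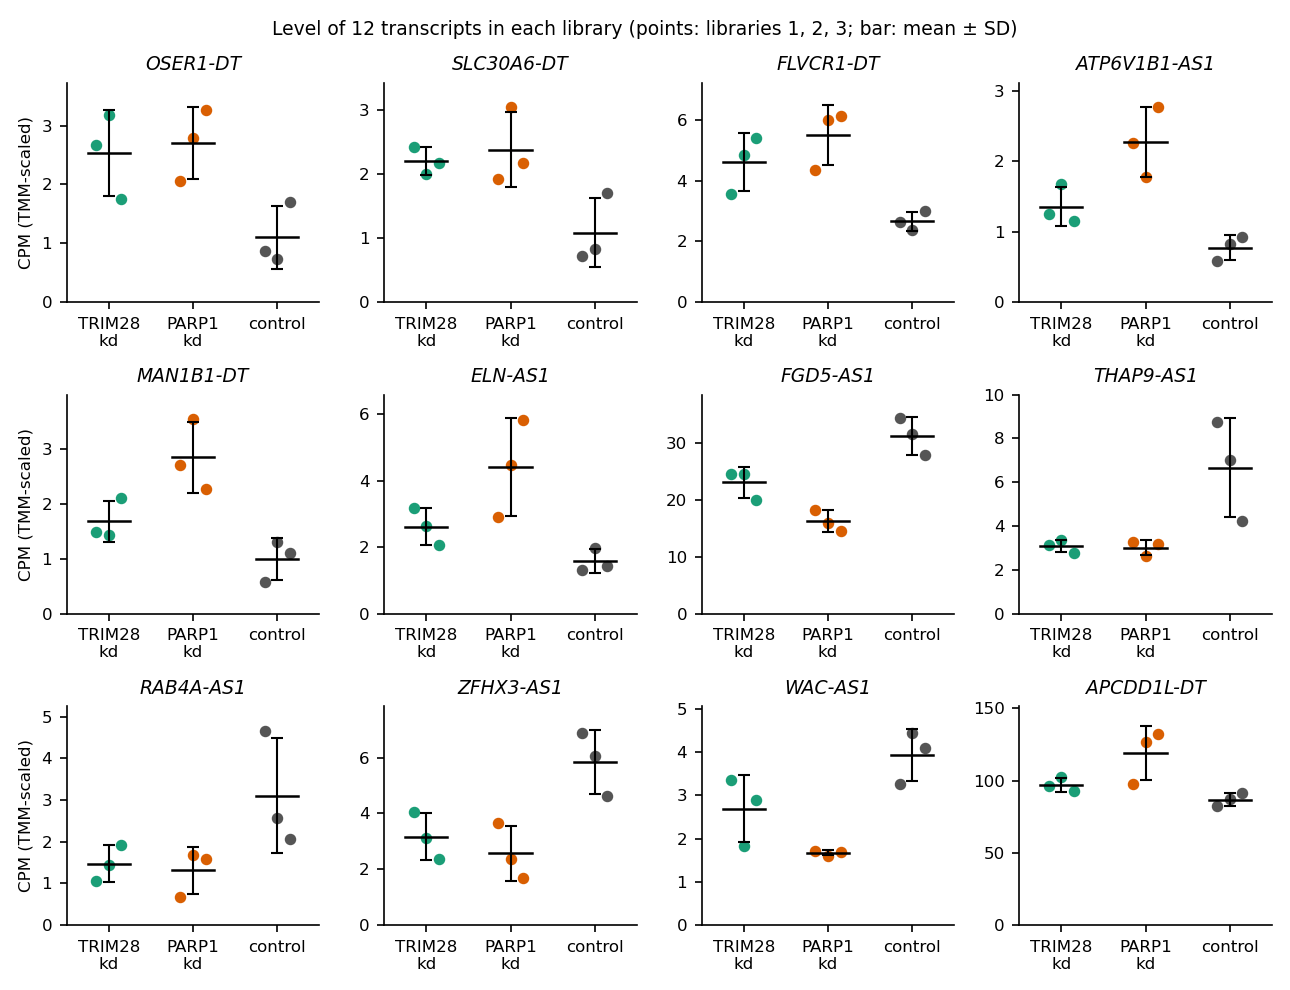
Level of 12 transcripts (vertical axes, TMM-scaled CPM, starting at 0) in the 3 libraries of TRIM28 knockdown, PARP1 knockdown and control, with the mean and SD as bars. FGD5-AS1 lies at 14.4 to 24.6 CPM in the knockdown libraries and at 27.7 to 34.4 CPM in controls.

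In PARP1 knockdown against control, 77 of the 275 transcripts rose, 13 fell and 185 did not pass the test. Over all genes tested 59.3% were called, 27.1% higher and 32.2% lower, and among genes with a mean count from 20 to under 200 the shares were 15.7% and 38.4%. The members' shares were 28.0% higher and 4.73% lower, or 25.1% and 4.31% of the 255 in that range of counts. The share that rose was thus near that of all genes and above that of genes with like counts, and the share that fell was below both. Of the 127 transcripts with a mean count of at least 50, 54 rose (42.5%) and 7 fell. The share of all genes with such counts was not taken, so 42.5% has no like background here. Over all 275 transcripts the median log2 fold change was 0.41, against -0.07 over all genes. Of the -DT transcripts, 30 of 85 rose and 0 fell, and of the -AS transcripts 47 of 190 rose and 13 fell. Libraries did not overlap for 97 transcripts that were higher and 17 that were lower, where 30.5% and 33.0% of all genes did so. The split depends on the scaling. With library totals it was 30 higher and 27 lower, with the median of all genes at -0.39 and that of the transcripts at 0.09, and with trends of length and GC content removed it was 109 and 20. The transcripts called changed as well: of the 90 called here, 43 were also called with library totals and 58 with both trends removed. Leaving out 1 library gave 61 to 95 higher and 9 to 19 lower, with 95 and 19 without PARP1 knockdown replicate 1 and 94 and 14 without control replicate 3. Both knockdowns were set against the same 3 controls, so values of the members are given side by side.

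The steepest rise in PARP1 knockdown was that of ATP6V1B1-AS1 (ENSG00000239322, chromosome 2, 70941817 to 70948610, minus strand), named after a proton pump subunit of kidney tubules. It stood at 1.25, 1.67 and 1.15 CPM in TRIM28 knockdown and 2.25, 1.78 and 2.77 CPM in PARP1 knockdown, against 0.577, 0.823 and 0.922 CPM in control. All PARP1 knockdown libraries lay above all others. The log2 fold change was 1.53 ± 0.38 (adjusted p = 0.00122, edgeR) in PARP1 knockdown and 0.79 ± 0.39 in TRIM28 knockdown, which did not pass. Its exons lie wholly under a gene on the same strand, which makes these counts uncertain. MAN1B1-DT (ENSG00000268996, chromosome 9, 137084946 to 137086817, minus strand), whose start lies 40 bases from that of the endoplasmic reticulum mannosidase gene MAN1B1, held 1.49, 1.44 and 2.11 CPM in TRIM28 knockdown and 2.72, 3.55 and 2.28 CPM in PARP1 knockdown, against 0.577, 1.31 and 1.11 CPM in control. It rose by 1.51 ± 0.36 (adjusted p = 0.000848, edgeR) in PARP1 knockdown. MAN1B1 rose with it, at 214, 237 and 278 CPM in PARP1 knockdown against 113, 121 and 132 CPM in control (log2 0.99 ± 0.14). With the trends of length and GC content removed the call for MAN1B1-DT ended (0.58).

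ELN-AS1, named after the elastin gene and with most exon bases in introns of the other strand, had 2.91, 4.48 and 5.84 CPM in PARP1 knockdown, against 1.299, 1.99 and 1.43 CPM in control. It rose by 1.47 ± 0.31 (adjusted p = 0.000272, edgeR), with PARP1 knockdown replicate 3 the highest library, and the call ended with trends of length and GC content removed (0.53). ELN had at most 0.495 CPM in any library and was not tested. ZNF232-AS1 rose by 1.25 ± 0.21, EXOC3-AS1, beside a subunit of the exocyst, by 1.23 ± 0.34, and MAFG-DT, beside a small Maf transcription factor, by 1.19 ± 0.30. CRIM1-DT, beside a transmembrane protein that binds bone morphogenetic proteins, rose by 1.22 ± 0.29. The calls for EXOC3-AS1 (0.51) and MAFG-DT (0.08) ended with trends of length and GC content removed. Of the HOX cluster transcripts that have no single gene of the name, HOXD-AS2 (1.06 ± 0.22), HOXB-AS1 (0.96 ± 0.30), HOXA-AS3 (0.93 ± 0.34) and HOXA-AS2 (0.49 ± 0.18) rose in PARP1 knockdown, and HOXB-AS3 (0.77 ± 0.37) and HOXB-AS4 (-0.68 ± 0.36) did not pass. None of these 6 passed in TRIM28 knockdown.

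The falls in PARP1 knockdown were all in -AS transcripts. HERPUD2-AS1, at the gene of a membrane protein of the endoplasmic reticulum, stood at 1.74, 1.27 and 1.57 CPM in TRIM28 knockdown and 0.795, 1.27 and 0.297 CPM in PARP1 knockdown, against 2.07, 2.23 and 2.30 CPM in control. It fell by 1.45 ± 0.40 on the log2 scale (adjusted p = 0.00324, edgeR) in PARP1 knockdown. HERPUD2 fell as well, to 9.21, 6.43 and 5.14 CPM in PARP1 knockdown, against 23.3, 21.2 and 17.1 CPM in control (log2 -1.55 ± 0.20). WAC-AS1, at the gene of an adaptor for histone H2B ubiquitination, held 1.72, 1.61 and 1.68 CPM in PARP1 knockdown, against 3.27, 4.45 and 4.10 CPM in control, which is -1.23 ± 0.30 on the log2 scale (adjusted p = 0.00102, edgeR). WAC fell too (-0.85 ± 0.23). BAALC-AS1 changed by -0.97 ± 0.31 and TPT1-AS1, which starts 61 bases from the gene of the translationally controlled tumour protein, by -0.69 ± 0.24. With trends of length and GC content removed the call for BAALC-AS1 ended (-0.02) and that for TPT1-AS1 turned (0.11), and the TPT1-AS1 call also ended without control replicate 2 or PARP1 knockdown replicate 3 (-0.58 to -0.55).

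Set directly against each other, TRIM28 knockdown and PARP1 knockdown differed in 15 of the 275 transcripts: 1 was higher in TRIM28 knockdown and 14 were lower, where 25.1% of all genes were called, 13.2% higher and 11.9% lower. Among genes with a mean count from 20 to under 200 the shares were 8.1% and 4.8%. Libraries did not overlap for 10 transcripts that were higher and 46 that were lower, where 20.7% and 18.7% of all genes did so. The median log2 difference was -0.20. FGD5-AS1, described above, was the 1 that was higher (0.50 ± 0.16, adjusted p = 0.0227, edgeR), and that call ended without TRIM28 knockdown replicate 1 or 2 or PARP1 knockdown replicate 2 or 3 (0.43 to 0.49). DNAJC9-AS1 stood at 1.93, 1.196 and 0.663 CPM in TRIM28 knockdown, against 3.25, 2.79 and 2.47 CPM in PARP1 knockdown (log2 -1.17 ± 0.37, adjusted p = 0.0217, edgeR). It is named after a histone chaperone gene, its exons lie wholly under another gene of its strand, and the call ended without TRIM28 knockdown replicate 2 or 3 (-1.14 to -0.87). PTPRG-AS1 held 1.43, 1.67 and 1.15 CPM in TRIM28 knockdown, against 2.05, 2.28 and 4.06 CPM in PARP1 knockdown (-0.97 ± 0.36, adjusted p = 0.0474, edgeR). Its call ended in 7 of 9 fits that left out 1 library, those without control replicate 1 or 2 or any library of either knockdown other than PARP1 knockdown replicate 1 (-1.09 to -0.62). ZNF232-AS1 had 11.1, 9.72 and 9.10 CPM in TRIM28 knockdown, against 11.7, 20.04 and 25.03 CPM in PARP1 knockdown (-0.91 ± 0.21, adjusted p = 0.00381, edgeR). DPP3-DT had 3.67, 5.02 and 3.86 CPM in TRIM28 knockdown, against 6.36, 6.68 and 9.70 CPM in PARP1 knockdown (-0.85 ± 0.24, adjusted p = 0.0120, edgeR), a call that ended without TRIM28 knockdown replicate 1 or PARP1 knockdown replicate 3 (-0.77 to -0.65). The number that was lower was 5, 6 and 6 without TRIM28 knockdown replicates 1, 2 and 3, and 33, 8 and 3 without PARP1 knockdown replicates 1, 2 and 3. With library totals it was 4, beside 4 that were higher.

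**Figure D3:**
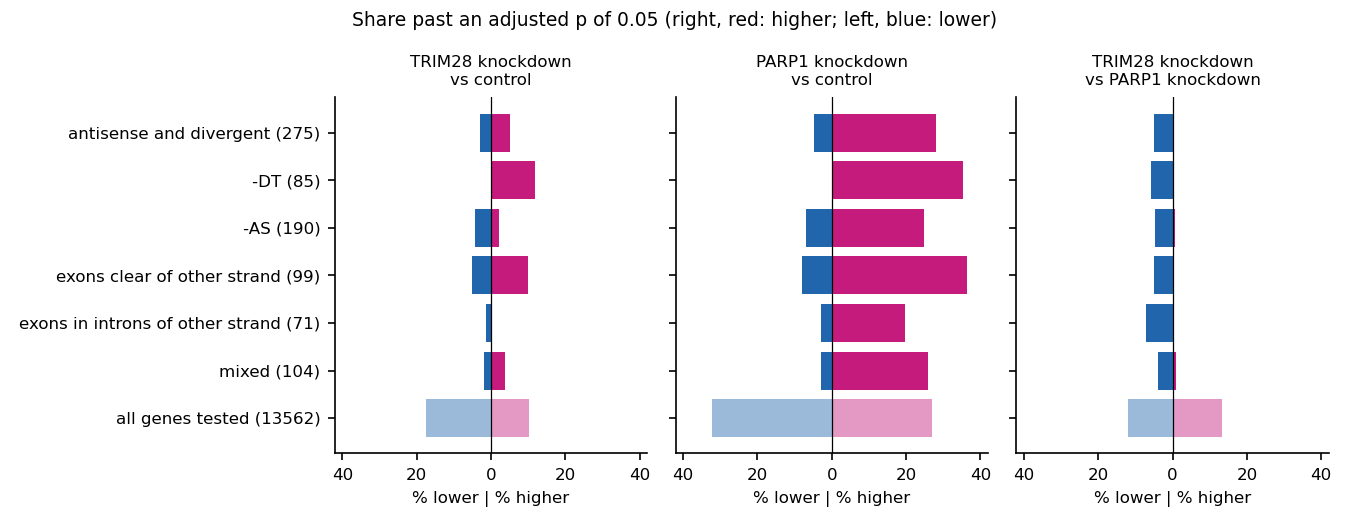
Share of transcripts past an adjusted p of 0.05 in each comparison, higher to the right and lower to the left of 0 (horizontal axis, percent), for all 275 transcripts, for -DT and -AS transcripts, for the 3 classes of exon overlap and, in pale colour, for all 13562 genes tested. No -DT transcript lies on the lower side in either comparison with control.

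The calls were also counted by class of exon overlap. Of the 99 clear transcripts, 10 rose and 5 fell in TRIM28 knockdown, where 10.3% and 17.5% of all genes did, and 36 rose and 8 fell in PARP1 knockdown. Of the 71 with most exon bases inside introns of the other strand, 0 rose and 1 fell in TRIM28 knockdown, and 14 rose and 2 fell in PARP1 knockdown. The mixed class had 4 higher and 2 lower in TRIM28 knockdown, and 27 and 3 in PARP1 knockdown. The share that rose in PARP1 knockdown was thus 36.4% among clear transcripts and 19.7% among those inside introns, with 27.1% over all genes. Whether the classes differ was not tested.

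Each transcript was then compared with its gene through the log2 ratio of the pair within a library, which does not depend on the scaling of libraries. The ratio can still follow the length trend of a library where the 2 genes differ in exon length. The ratio was tested with limma over 3395 pairs of genes on opposite strands, 245 of them a transcript here and the gene it is named after. In TRIM28 knockdown the ratio rose in 35 of the 245 pairs and fell in 1, with a median change of 0.34, and 14.4% of all 3395 pairs were called in either direction. In PARP1 knockdown it rose in 104 pairs and fell in 17, with a median change of 0.62, and 42.4% of all pairs were called, or 41.8% without the members. In TRIM28 knockdown that last share was 14.4%. With TMM factors the median log2 change in TRIM28 knockdown was 0.18 over all 275 transcripts and -0.11 over the 245 named genes. In PARP1 knockdown these medians were 0.41 and -0.24. Unlike the ratio, they depend on the scaling, and with library totals those of the transcripts were lower, as given above. How the change of the ratio divides between transcript and gene thus depends on the scaling. Of the 245 named genes, 27 rose and 59 fell in TRIM28 knockdown, where 10.3% and 17.5% of all genes did, and 58 rose and 94 fell in PARP1 knockdown, where 27.1% and 32.2% did. In 638 other pairs of a noncoding and a coding gene, the noncoding-to-coding ratio rose in 27.3% and fell in 4.70% in PARP1 knockdown (median 0.52), and rose in 5.96% and fell in 0.470% in TRIM28 knockdown (median 0.29). In 2162 pairs of coding genes, the ratio of the gene with fewer reads to the other rose in 19.4% and fell in 26.3% in PARP1 knockdown (median -0.12), and rose in 5.55% and fell in 11.7% in TRIM28 knockdown (median -0.10). Whether the named transcripts differ from these other pairs was not tested. The number of pairs that rose in TRIM28 knockdown was 12 and 13 without control replicates 1 and 2, and 23, 14 and 19 without TRIM28 knockdown replicates 1, 2 and 3.

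**Figure D4:**
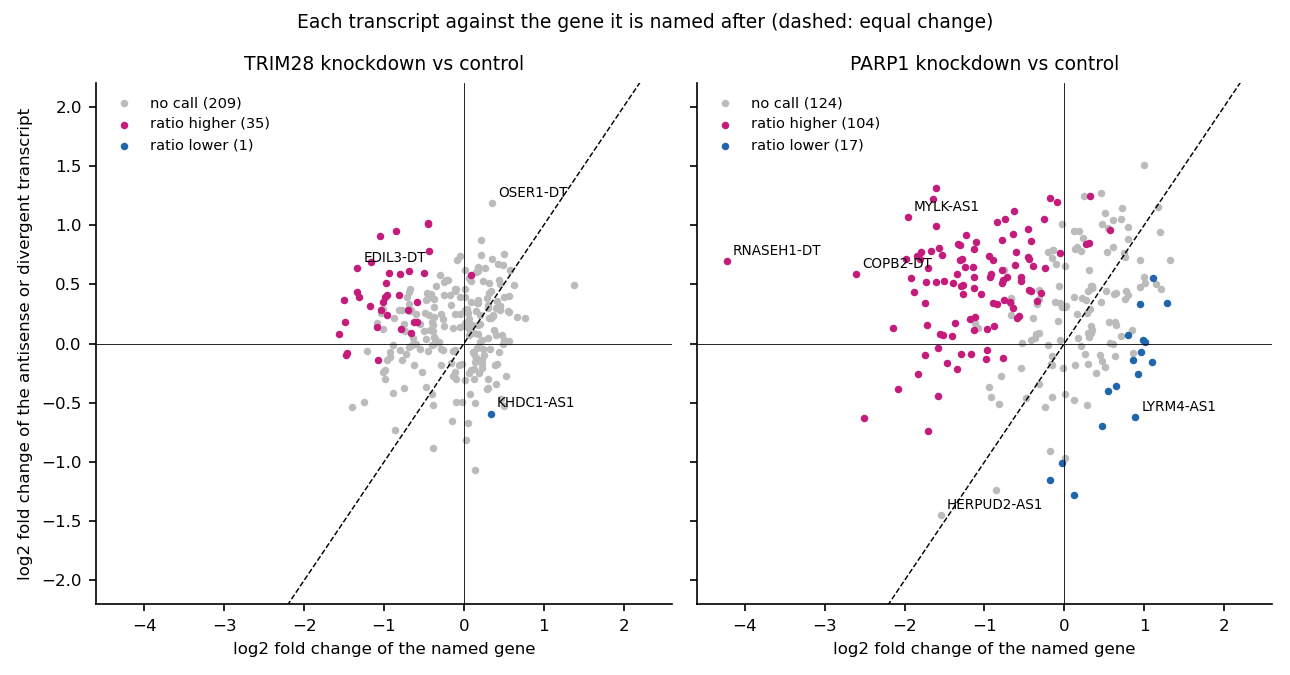
Log2 fold change of each transcript (vertical axis) against that of the gene it is named after (horizontal axis) for 245 pairs, TRIM28 knockdown on the left and PARP1 knockdown on the right, coloured by the call on the ratio and with a dashed line of equal change. Pairs with a higher ratio lie above the line, most of them left of 0, and RNASEH1-DT lies apart at -4.22 for RNASEH1.

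RNASEH1-DT (ENSG00000234171, chromosome 2, 3558419 to 3564842, plus strand) had the largest change of the ratio among the 245 pairs. Its neighbour RNASEH1 encodes the ribonuclease that removes RNA from RNA-DNA hybrids. RNASEH1 had 18.3, 18.2 and 15.7 CPM in TRIM28 knockdown and 1.92, 1.10 and 1.29 CPM in PARP1 knockdown, against 33.9, 26.1 and 22.9 CPM in control. PARP1 knockdown left 5.19% of the control mean, and no library of that group came near any other. RNASEH1-DT, from the same promoter, held 20.1, 23.6 and 18.3 CPM in TRIM28 knockdown and 19.9, 29.8 and 33.6 CPM in PARP1 knockdown, against 15.7, 16.2 and 19.3 CPM in control. RNASEH1 fell by 4.22 ± 0.23 on the log2 scale (adjusted p = 1.37e-12, edgeR) while RNASEH1-DT rose by 0.70 ± 0.18 (adjusted p = 0.00145, edgeR), and the ratio changed by 4.84 ± 0.31 (adjusted p = 9.37e-08, limma). The rise of RNASEH1-DT did not pass with library totals (0.36). In TRIM28 knockdown RNASEH1 fell by 0.67 ± 0.18, RNASEH1-DT changed by 0.27 ± 0.18 and the ratio by 0.92 ± 0.31, and of these the fall of RNASEH1 passed. In FPKM, RNASEH1-DT stood at 4.66 ± 0.513 in TRIM28 knockdown, 5.52 ± 1.06 in PARP1 knockdown and 4.29 ± 0.319 in control, and RNASEH1 at 2.93 ± 0.226, 0.217 ± 0.0814 and 5.22 ± 1.24 (SD, n = 3 each). In mean FPKM RNASEH1-DT was thus above RNASEH1 in both knockdowns and below it in control, where the SDs of the pair overlap.

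COPB2-DT (ENSG00000248932, chromosome 3, 139389761 to 139782699, plus strand) runs from the promoter of COPB2, a subunit of the COPI vesicle coat. COPB2 had 36.2, 34.8 and 36.4 CPM in TRIM28 knockdown and 19.0, 17.8 and 11.97 CPM in PARP1 knockdown, against 116, 114 and 68.9 CPM in control. COPB2-DT had 2.43, 2.39 and 2.89 CPM in TRIM28 knockdown and 3.05, 4.82 and 4.65 CPM in PARP1 knockdown, against 2.45, 2.81 and 3.00 CPM in control. COPB2 fell in both knockdowns (log2 -1.48 ± 0.17 and -2.61 ± 0.19), while COPB2-DT passed in neither (-0.09 ± 0.28 and 0.59 ± 0.27). The ratio changed by 1.34 ± 0.34 with TRIM28 knockdown and 3.15 ± 0.34 with PARP1 knockdown (adjusted p = 3.65e-06, limma), and the first of these calls ended without either of control replicates 1 and 2 or TRIM28 knockdown replicate 2 or 3 (1.13 to 1.37).

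Transcript and gene both passed in opposite directions in 3 pairs in TRIM28 knockdown and in 31 pairs in PARP1 knockdown, 29 of which had the transcript higher, where 2.74% and 11.2% of the 3395 pairs did so. Those in TRIM28 knockdown included ITGB1-DT and GARS1-DT, each with the transcript higher. ITGB1-DT had 8.59, 12.04 and 7.66 CPM in TRIM28 knockdown and 8.21, 11.2 and 15.5 CPM in PARP1 knockdown, against 4.62, 5.76 and 7.00 CPM in control. ITGB1, the beta subunit of many integrins, had 106, 91.7 and 93.6 CPM in TRIM28 knockdown and 59.1, 77.5 and 79.2 CPM in PARP1 knockdown, against 272, 246 and 137 CPM in control. Control replicate 3 was the lowest control for ITGB1 and the highest for ITGB1-DT. The ratio rose by 1.79 ± 0.32 in TRIM28 knockdown (adjusted p = 0.00240, limma) and by 2.51 ± 0.32 in PARP1 knockdown (adjusted p = 1.73e-05, limma).

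GARS1-DT, opposite glycyl-tRNA synthetase, rose by 0.51 ± 0.19 with TRIM28 knockdown and 0.71 ± 0.19 with PARP1 knockdown, while GARS1 fell by 0.98 ± 0.15 and 1.81 ± 0.16. Its call in TRIM28 knockdown ended without control replicate 1 or 2, TRIM28 knockdown replicate 1 or 2 or PARP1 knockdown replicate 2 (0.44 to 0.57), and with library totals the calls in TRIM28 knockdown (0.35) and PARP1 knockdown (0.38) both ended. Of its exon bases, 20.8% lie under another gene on its strand.

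**Figure D5:**
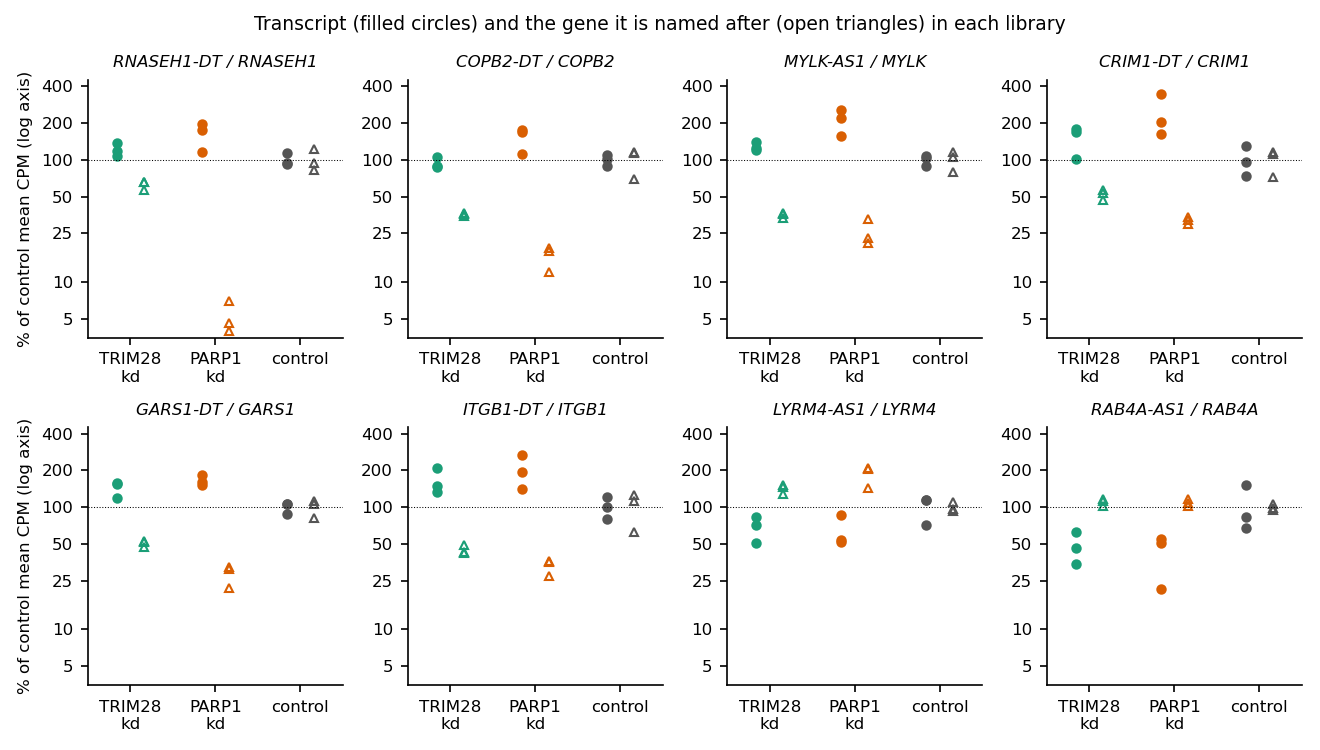
Level of 8 transcripts (filled circles) and of the genes they are named after (open triangles) in each library, as percent of the control mean CPM (vertical axis, log scale), for TRIM28 knockdown, PARP1 knockdown and control. In 6 pairs the circles lie above and the triangles below the control mean in PARP1 knockdown, and LYRM4-AS1 and RAB4A-AS1 show the other order.

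The further pairs named for PARP1 knockdown were MYLK-AS1, CRIM1-DT and KDM4A-AS1, in all of which the gene fell and the transcript rose. MYLK-AS1 is named after the myosin light chain kinase gene, has most exon bases in introns of the other strand and had 4.24, 5.92 and 6.93 CPM in PARP1 knockdown, against 2.41, 2.76 and 2.90 CPM in control. MYLK had 13.4, 8.46 and 9.30 CPM in PARP1 knockdown, against 47.0, 43.4 and 32.3 CPM in control, and the ratio rose by 3.00 ± 0.32 (adjusted p = 3.34e-06, limma). CRIM1-DT, a clear transcript, had 4.77, 5.92 and 9.99 CPM in PARP1 knockdown, against 2.17, 3.78 and 2.81 CPM in control, and CRIM1 had 28.9, 30.3 and 26.8 CPM in PARP1 knockdown, against 99.6, 104 and 64.2 CPM in control. Its ratio rose by 2.78 ± 0.33 (adjusted p = 7.17e-06, limma). KDM4A-AS1, named after a histone demethylase gene and with most exon bases in introns of the other strand, rose by 0.72 ± 0.25 while KDM4A fell by 1.98 ± 0.20, and the ratio rose by 2.63 ± 0.27. The rise of KDM4A-AS1 ended without PARP1 knockdown replicate 2 or 3 (0.61 to 0.64) and with library totals (0.38).

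In TRIM28 knockdown the largest rises of the ratio were in EDIL3-DT (1.87 ± 0.37), SRP54-AS1 (1.86 ± 0.38), MYLK-AS1 (1.82 ± 0.32), ITGB1-DT and SIPA1L1-AS1 (1.71 ± 0.38). In EDIL3-DT, SRP54-AS1, MYLK-AS1 and SIPA1L1-AS1 the gene alone passed: EDIL3, an extracellular matrix protein, fell by 1.33 ± 0.23, SRP54, of the signal recognition particle, by 1.05 ± 0.20, MYLK by 1.5 ± 0.18 and SIPA1L1 by 1.34 ± 0.19. The ratio call for SIPA1L1-AS1 ended without control replicate 1 or TRIM28 knockdown replicate 2 (1.47 to 1.51). The 1 pair whose ratio fell was KHDC1-AS1 (-0.87 ± 0.28, adjusted p = 0.0454, limma), a call that ended without any 1 of the 3 control or 3 TRIM28 knockdown libraries or PARP1 knockdown replicate 2 (-1.04 to -0.74).

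The ratios that fell most in PARP1 knockdown were those of LYRM4-AS1 (-1.50 ± 0.39), NARF-AS2 (-1.34 ± 0.40), RAB4A-AS1 (-1.30 ± 0.42), ECI1-AS1 (-1.19 ± 0.33) and TPT1-AS1 (-1.17 ± 0.25). LYRM4, a factor of iron-sulfur cluster assembly, had 56.6, 81.5 and 81.3 CPM in PARP1 knockdown, against 36.8, 38.3 and 43.1 CPM in control, and LYRM4-AS1 had 2.32, 1.44 and 1.39 CPM in PARP1 knockdown, against 3.08, 3.05 and 1.94 CPM in control. LYRM4 rose (0.89 ± 0.15), and LYRM4-AS1 did not pass (-0.62 ± 0.33). ECI1, a mitochondrial enzyme of fatty acid oxidation, rose by 1.10 ± 0.17 and NARF by 0.92 ± 0.14, while ECI1-AS1 (-0.16 ± 0.34) and NARF-AS2 (-0.26 ± 0.33) did not pass. TPT1 rose by 0.47 ± 0.13. The ratio calls ended without control replicate 1 or PARP1 knockdown replicate 3 for NARF-AS2 (-1.20 to -0.80) and without control replicate 1 or PARP1 knockdown replicate 1 for RAB4A-AS1 (-0.96 to -0.92). Removing the length trend also ended the ratio call for RAB4A-AS1 (-0.75).

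Genes of RNA decay, termination and polyadenylation were read from 3 lists, and not every gene listed limits such transcripts. The first held 20 genes of the RNA exosome and of its nuclear adaptors NEXT and PAXT, and the nuclear form of the exosome degrades divergent transcripts. In TRIM28 knockdown 4 rose and 5 fell, where 10.3% and 17.5% of all genes did, and in PARP1 knockdown 7 rose and 6 fell, where 27.1% and 32.2% did, with medians of 0.00 and -0.14. Without control replicate 1, control replicate 2 or the second TRIM28 knockdown library, 1 rose and 2 fell in TRIM28 knockdown. Without control replicate 1 or 2, 4 rose in PARP1 knockdown, and the median there was above 0 without either of them (0.02 each) or PARP1 knockdown replicate 1 (0.05). Among them EXOSC4 and EXOSC5, of the exosome core, changed by 0.55 and 0.60 in TRIM28 knockdown and by 1.42 and 1.15 in PARP1 knockdown, and EXOSC7 by 0.41 and 0.73. EXOSC10, a catalytic subunit of the nuclear exosome, changed by -0.69 with TRIM28 knockdown and -1.57 with PARP1 knockdown, DIS3L, the catalytic subunit of the cytoplasmic exosome, by -0.71 and -1.85, and ZCCHC8 of the NEXT adaptor by -1.09 and -1.53. The second list held 25 genes of early termination, cap binding and the Integrator complex. In TRIM28 knockdown 0 rose and 11 fell (median -0.31), and in PARP1 knockdown 4 rose and 20 fell (median -1.08), where 32.2% of all genes fell. With trends of length and GC content removed, 2 rose and 15 fell in PARP1 knockdown (median -0.56). XRN2, the exonuclease of termination, fell by 1.01 with TRIM28 knockdown and 1.89 with PARP1 knockdown, and the cap-binding protein NCBP3 by 0.99 and 1.55. PHAX, an export adaptor of small RNAs, fell by 0.98 with TRIM28 knockdown and 1.21 with PARP1 knockdown, and ZC3H18, a partner of the cap-binding complex, by 0.605 and 1.24. The Integrator genes INTS5, INTS11 and INTS15 rose in PARP1 knockdown (0.60 to 0.72). The third list held 21 genes of cleavage, polyadenylation and the U1 snRNP, of which 2 rose and 6 fell in TRIM28 knockdown and 5 rose and 8 fell in PARP1 knockdown (medians -0.15 and -0.27). CPSF3, the endonuclease of polyadenylation, fell by 0.93 with TRIM28 knockdown and 1.58 with PARP1 knockdown, and FIP1L1 by 0.99 and 1.69. SNRPC of the U1 snRNP rose by 0.55 and 0.69. With library totals the third list read 3 higher and 13 lower in PARP1 knockdown, and the first 3 and 9. The median of the first list in PARP1 knockdown was 0.30 with trends of length and GC content removed. In the direct comparison of TRIM28 knockdown with PARP1 knockdown, 12 of the 25 genes of the second list were higher and 3 lower. Over all genes, 13.2% were higher and 11.9% lower. Of the list genes, 6 or 7 were higher and 1 or 2 lower without any 1 of the TRIM28 knockdown libraries or PARP1 knockdown replicate 2 or 3. In the third list, 1 to 4 genes rose in TRIM28 knockdown when 1 library was left out. Any part of these genes in the levels of the transcripts was not tested. In bulk RNA, fewer cells of a type and less RNA per cell cannot be told apart, which holds for every level given here.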

How the data were processed

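Polyadenylated RNA of 9 libraries was sequenced. The submitters' processing notes list STAR 2.7.9a and featureCounts 2.0.1, besides FastQC 0.11.9 and Trim Galore 0.6.6 for reads, DESeq2 1.30.0 run in R 4.0.3, and the build GRCh38. The gene annotation and the strandedness of counting were not given in the sources used here. Deposited by the authors were whole-number read counts per gene, without normalization, and FPKM values per gene, both per the file headers. Depth per library is given in the text; counts that average as few as 20 limit the precision of the lowest transcripts.

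Changes were tested with edgeR 4.0.16 (R 4.3.3): TMM factors, the package's filter on low counts (13562 genes left), 1 fit of 9 libraries in 3 groups, the quasi-likelihood test, two-sided, with Benjamini-Hochberg adjustment over all genes at 0.05 (biological coefficient of variation 0.149). Log2 ratios of opposite-strand pairs (overlapping, or starts within 5 kb head to head; log2 CPM with a prior count of 2) were tested with limma 3.58.1. Length slopes used log2(CPM + 0.1). Both tests were first tested on simulated data. Exon overlap came from GENCODE 29, promoters from RefSeq on GRCh38.p14. Named transcripts were the 6 with the most reads, the 8 largest rises and 8 largest falls of each knockdown and the 4 largest of the direct comparison among called transcripts whose libraries did not overlap, up to 5 pairs by opposite calls and by ratio in each direction, those called in both knockdowns, those near the count threshold and up to 3 list genes per direction by adjusted p; some of these are not reported here. The HOX transcripts and the shares of other pairs were chosen after their values were seen. The members, lists and tests were chosen with earlier results of these data known. Alternatives were DESeq2 1.42.0, its size factors, library totals, no filter, limma on FPKM with pseudocounts of 1 and 0.1, the compared groups alone, removed trends (lowess span 0.3), a replicate block and each library left out. Replicate pairs of a group all differed by more than sampling noise.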

Additional observations from a re-analysis of the deposited data

How the results depend on the processing

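The number of transcripts past the threshold in TRIM28 knockdown against control, 14 higher and 8 lower, was 4 higher with library totals, 6 higher with limma on FPKM with a pseudocount of 1 or 0.1 and 4 lower with 0.1, 24 higher and 4 lower with the length trend removed, and 31 and 5 with the trends of length and GC content removed. Among only the 127 transcripts with a mean count of at least 50, 11 rose (8.66%) and 5 fell (3.94%). Of all 275, 5.09% rose and 2.91% fell. In PARP1 knockdown against control, 77 higher and 13 lower, it was 30 and 27 with library totals, 36 higher with limma on FPKM and either pseudocount, and 20 lower with the trends of length and GC content removed. Among the same 127 transcripts, 54 rose (42.5%) and 7 fell (5.51%) in PARP1 knockdown, against 28.0% and 4.73% of all 275. The shares of all genes with such counts were not taken. Limma on FPKM tested only 189 of the transcripts, those with a mean of at least 0.5 FPKM. Between TRIM28 knockdown and PARP1 knockdown, 1 higher and 14 lower, it was 4 and 4 with library totals, 0 higher with the length trend removed, 0 higher and 28 lower with the trends of length and GC content removed, and 6 lower with limma on FPKM. Of the 15 transcripts called between the knockdowns, 5 were also called with library totals and 9 with both trends removed. Ratio pairs that fell in TRIM28 knockdown numbered 3 with the length trend removed and 8 with only the groups compared. Leaving out 1 library gave 2 to 23 higher and 1 to 9 lower in TRIM28 knockdown, 61 to 95 and 9 to 19 in PARP1 knockdown, and 0 to 3 and 3 to 33 between them. For ratios it gave 12 to 48 higher and 0 to 4 lower in TRIM28 knockdown, and 80 to 108 and 9 to 24 in PARP1 knockdown. With trends of length and GC content removed, STX18-AS1 (0.12) and TPT1-AS1 (0.11) turned in PARP1 knockdown. The cause of these differences was not tested.

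Whether the replicate numbers pair the samples is not stated. Deviations of same-numbered libraries correlated by -0.08 to 0.14, over 0.1 in 2 of 9 pairs. With 3 libraries a group, these values cannot settle whether the samples were paired. With the replicate block, TRIM28 knockdown had 15 higher and 7 lower, PARP1 knockdown 79 and 13, and their comparison 3 and 14, with 0 ratio pairs lower in TRIM28 knockdown; with the length trend removed in the same fit, TRIM28 knockdown had 27 higher and 3 lower. In TRIM28 knockdown 253 transcripts did not pass, 111 of them with a mean count of at least 50, which does not show that their levels were alike.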
